A study of Mus musculus with 13 samples.

Results

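The distal convoluted tubule (DCT) nuclei of this mouse kidney series are the nuclei that the deposited annotation of its single nuclei ATAC-seq (snATAC-seq) places in the cluster DCT. They number 950 of 28316 nuclei in all, and 950 of the 27652 nuclei in the 13 named cell types. Whole kidneys were sampled in 5 samples, which are P0 sample 1 and P0 sample 2 (newborn mice, 1 day old by the protocol), P21 sample 1, and P56 sample 1 and P56 sample 2. The P21 and P56 samples form the adult group of 3 samples. The labels name no treatment and no altered allele in any group, and the strain and sex of these mice and the number of animals in a sample are not given in the sources used here, so p-values measure only the spread between samples. Only the older mice are described as perfused before the kidneys were lysed, so stage and handling cannot be told apart.

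In snATAC-seq a transposase cuts DNA that is not wrapped in closed chromatin, and a peak is a stretch where such cuts gather, often a promoter or an enhancer. The DCT is the short nephron segment after the thick ascending limb of the loop of Henle (LOH) and before the connecting tubule (CNT). Its cells take up sodium and chloride through the thiazide-sensitive cotransporter NCC, the product of Slc12a3, under the control of the WNK kinases and of the ubiquitin ligase adaptor that Klhl3 encodes. They also take up magnesium through the channel Trpm6, and the calcium-binding protein parvalbumin (Pvalb) marks the early part of the segment. The late part of the DCT merges into the CNT and shares with it the machinery of calcium transport, which includes the channel Trpv5, the buffer Calb1 and the exchanger Slc8a1.

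Of 4 regions that were far more open in DCT nuclei than in other nuclei, the bases are shown 5′ to 3′ on the plus strand in lower case, with each match to 1 of 16 searched motifs, found on either strand, in capitals. The first is the RefSeq promoter of Slc12a3 in GRCm38.p6, the 250 bases before its start at chr8:94328958-94329207, shown because it lies in the most open of the 10 peaks that exceeded every other cell type. Its capitals mark the KLF motif CCCCACCC at base 149 and the TFAP2 motif GCCNNNGGC at base 178. The second holds the 200 bases before the start of Esrrb at chr12:86360917-86361116, since the peak there had the smallest adjusted p among peaks that exceeded every other cell type, and it holds the KLF motif at base 162. The third is the centre of a peak in an intron of Sppl2a at chr2:126897685-126897984, the most open of those peaks away from any start, with the AP-1 motif TGANTCA at base 47, the steroid receptor motif GNACANNNTGTNC at base 98 and the FOX motif TGTTTAC at base 150. The fourth is the centre of a peak 3.74 kb past the 3′ end of Pvalb at chr15:78186890-78187189, with the HNF1 motif GTTAATNAT at base 88. Among 32851 RefSeq promoters, the KLF motif stood in the 250 bases before the start of 9.05% and in the 200 bases before the start of 7.9%, and the TFAP2 motif in the 250 bases of 13.7%. In the central 300 bp of all peaks, AP-1 was found in 10.5%, the steroid receptor motif in 0.701%, FOX in 5.09% and HNF1 in 1.48%.
Slc12a3, before the start: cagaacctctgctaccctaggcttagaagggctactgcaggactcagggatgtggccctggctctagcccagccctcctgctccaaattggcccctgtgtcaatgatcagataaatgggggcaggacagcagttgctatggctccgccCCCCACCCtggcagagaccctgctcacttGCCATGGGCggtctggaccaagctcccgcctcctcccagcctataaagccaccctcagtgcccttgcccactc
Esrrb, before the start: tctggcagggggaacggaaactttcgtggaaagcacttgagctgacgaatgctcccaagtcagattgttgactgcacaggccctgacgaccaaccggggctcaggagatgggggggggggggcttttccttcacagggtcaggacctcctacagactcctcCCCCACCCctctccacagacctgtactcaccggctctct
Sppl2a intron: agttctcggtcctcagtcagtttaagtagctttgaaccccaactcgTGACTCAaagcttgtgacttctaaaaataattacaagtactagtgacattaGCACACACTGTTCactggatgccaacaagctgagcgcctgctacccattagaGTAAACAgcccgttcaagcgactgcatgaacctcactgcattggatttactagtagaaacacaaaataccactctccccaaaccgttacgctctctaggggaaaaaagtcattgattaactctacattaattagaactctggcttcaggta
Past the 3′ end of Pvalb: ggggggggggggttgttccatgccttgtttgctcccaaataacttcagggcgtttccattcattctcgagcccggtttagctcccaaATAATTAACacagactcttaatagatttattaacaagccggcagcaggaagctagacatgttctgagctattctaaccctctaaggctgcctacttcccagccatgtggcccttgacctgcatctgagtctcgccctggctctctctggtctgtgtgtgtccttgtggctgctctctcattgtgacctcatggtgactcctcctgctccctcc

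The samples held 3361 to 7129 nuclei and 16980853 to 43794155 open calls, an open call being 1 peak found open in 1 nucleus. DCT nuclei gave 379608 open calls in P0 sample 1, 407121 in P0 sample 2, 370736 in P21 sample 1, 907782 in P56 sample 1 and 2621064 in P56 sample 2. The median DCT nucleus had 8025 and 7283 open peaks at P0 against 3270, 2549 and 5611.5 in the adult samples, so both P0 medians were higher. Single nuclei overlapped, with up to 14825 and 16124 open peaks at P0 and up to 17671 in P56 sample 2. A total of 477 barcodes occurred in more than 1 sample, and 39 DCT nuclei carried one of them.

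DCT nuclei were rarer at P0 than in adult kidneys. They were 51 of 5914 nuclei (0.862%) in P0 sample 1, 57 of 5357 (1.06%) in P0 sample 2, 101 of 3253 (3.105%) in P21 sample 1, 307 of 6931 (4.43%) in P56 sample 1 and 434 of 6197 (7.003%) in P56 sample 2. The share was 0.963% ± 0.143 (SD, n = 2) at P0 and 4.85% ± 1.98 (SD, n = 3) in the adult samples, which is 5.03 times higher. The groups did not overlap, and p was 0.2 in a two-sided exact permutation test over samples. By the difference of means used there, P56 samples 1 and 2 against the other samples differed by more than P0 against adult. Counted among nuclei of the tubule and collecting duct only, the share was 2.87% at P0 and 6.07% in the adult samples, also with p = 0.2 in the exact permutation test. A share of nuclei depends on what else the suspension held and on which nuclei survived isolation, and these were not measured.

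**Figure D1:**
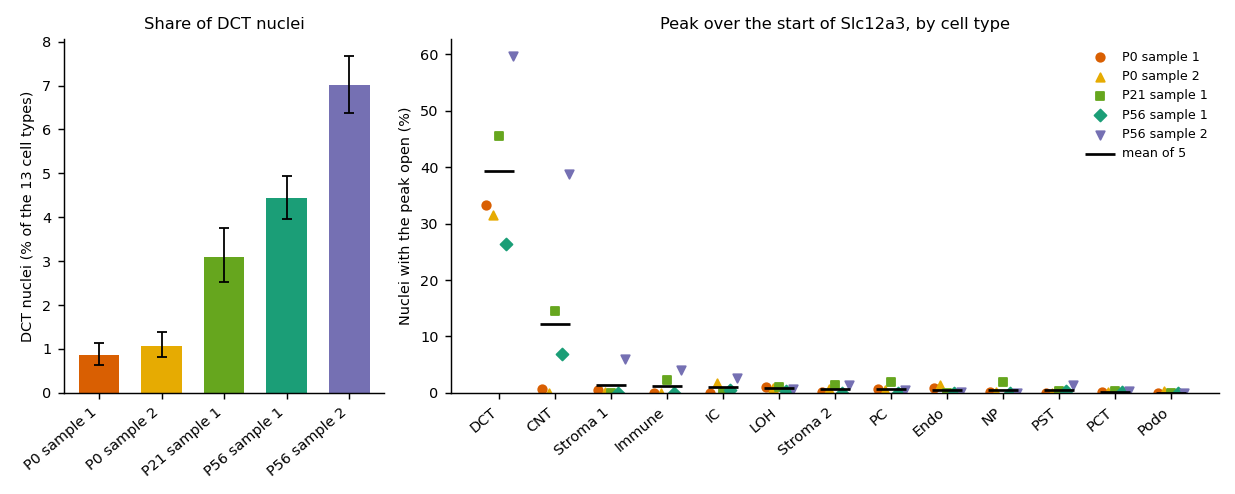
Left, bars give DCT nuclei as a percent of the nuclei of the 13 cell types in each sample, with exact binomial 95% intervals for counting error only; the share runs from 0.862% to 7.003%. Right, points give the percent of nuclei with the peak over the Slc12a3 start open, per sample and cell type, with the mean as a bar. DCT nuclei lie at 26.4% to 59.7% and the CNT has the next highest mean.

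The marker genes of the segment were set side by side across cell types. The authors named the cluster from open chromatin at marker genes of these nuclei, Slc12a3 and Pvalb among them, so the values below describe that choice and are no test of it. The peak over the Slc12a3 start, at chr8:94328760-94329567, was open in 33.3% and 31.6% of DCT nuclei in P0 samples 1 and 2, in 45.5% in P21 sample 1, and in 26.4% and 59.7% in P56 samples 1 and 2. It was more open in DCT nuclei than in any other cell type in 5 of 5 samples. CNT nuclei had the next highest mean, 12.1%. They had 0.741% in P0 sample 1 and 0 of 101 nuclei in P0 sample 2, which allows a share of up to 2.97%. Their shares were 14.5% in P21 sample 1, and 6.80% and 38.7% in P56 samples 1 and 2. CNT nuclei were thus almost all closed there at P0 and partly open in the adult samples. Every other cell type had a mean share of at most 1.32%, and no sample of them exceeded 5.94%.

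The remaining marker starts separated the DCT less. The peak over the Trpm6 start was open in 11.9% ± 3.85 of DCT nuclei and 7.77% ± 3.37 of CNT nuclei (SD, n = 5 samples each), and DCT was highest in 5 of 5 samples. The peak over the Klhl3 start was open in 15.2% ± 4.78 of DCT and 11.45% ± 4.43 of CNT nuclei, and DCT was highest in 3 of 5 samples. The Wnk4 start lies in a wide peak shared with Ramp2 and Vps25 that was open in 40.65% of DCT and 43.8% of proximal straight tubule nuclei, so it did not mark DCT nuclei. At Pvalb, only a peak over the start of another transcript was listed, and it was open in 3.92% and 1.75% of DCT nuclei at P0 and in 2.97%, 3.91% and 8.065% in the adult samples, too few for the test. The peak past the 3′ end of Pvalb whose bases are shown above, 19.0 kb from the gene start, had 7.84% and 3.51% at P0 and 14.85%, 9.12% and 20.97% in P21 sample 1 and P56 samples 1 and 2. The CNT was next there, with a mean of 2.34%.

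Gene activity, taken as the open calls in all peaks over a gene body and the 2 kb before it, was scaled to CPM (open calls relative to the total of the sum, with TMM factors) and compared with the quasi-likelihood test of edgeR and Benjamini-Hochberg (BH) adjustment over all genes tested. Since the authors formed the clusters from the open chromatin of the same nuclei, comparisons of DCT with other clusters rank genes and peaks but are no independent test that they differ. Of 16711 genes set against the average of the 12 other clusters, called the mean below, 12.8% were higher and 12.2% lower in DCT nuclei at an adjusted p of 0.05. Against the LOH 1.97% were higher and 2.51% lower, and against the CNT 0.359% were higher and 1.1% lower. The profiles of DCT and CNT nuclei across 77118 peaks had a correlation of 0.930 and those of DCT and LOH nuclei one of 0.927, a description across peaks that share libraries and depth. The next were intercalated cells with 0.833 and principal cells with 0.826, so the neighbours in the nephron were the clusters most like the DCT. Within samples the LOH was the nearest in 4 and the CNT in 1.

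Slc12a3 led the other genes of salt transport. Its scaled activity in DCT nuclei was 374 and 405 CPM in P0 samples 1 and 2, 907 in P21 sample 1, and 912 and 708 in P56 samples 1 and 2. The LOH had 50.4 to 260 and the CNT 45.8 to 419, and DCT nuclei were the highest of all cell types in each of the 5 samples. On the log2 scale Slc12a3 was higher in DCT nuclei by 2.67 (SE 0.15) against the mean of the others, by 2.27 (SE 0.23) against the LOH and by 1.74 (SE 0.23) against the CNT, with an adjusted p of 4.8e-06 for the last.

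The 15 peaks of the Slc12a3 gene did not contribute alike. After the start peak, those centred 10377, 12019, 15798 and 16932 bp inside the gene had mean shares of 13.4%, 17.9%, 14.1% and 10.8% in DCT nuclei against at most 4.21% in CNT nuclei, and one at 26595 bp had 18.8% against 5.70%. A peak at 25450 bp, over the start of a further transcript, was open in 36.4% of DCT nuclei but also in 34.6% of proximal straight tubule nuclei. The peak at 29713 bp had 14.6% in DCT and 16.6% in proximal straight tubule nuclei. The widest peak, 4224 bp over the 3′ end at chr8:94362093-94366316, was open in 56.9% and 56.1% of DCT nuclei at P0, in 49.5% in P21 sample 1, and in 83.4% and 28.6% in P56 samples 1 and 2. P56 sample 2 was the lowest there as deposited, but 305 of its 434 DCT nuclei have an entry listed as 0 at this peak, and with such entries read as open it was the highest, at 98.85% against 73.7% to 98.0% in the other 4 samples. Without that peak Slc12a3 was higher by 2.98 against the mean, by 2.35 against the LOH and by 1.76 against the CNT.

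**Figure D2:**
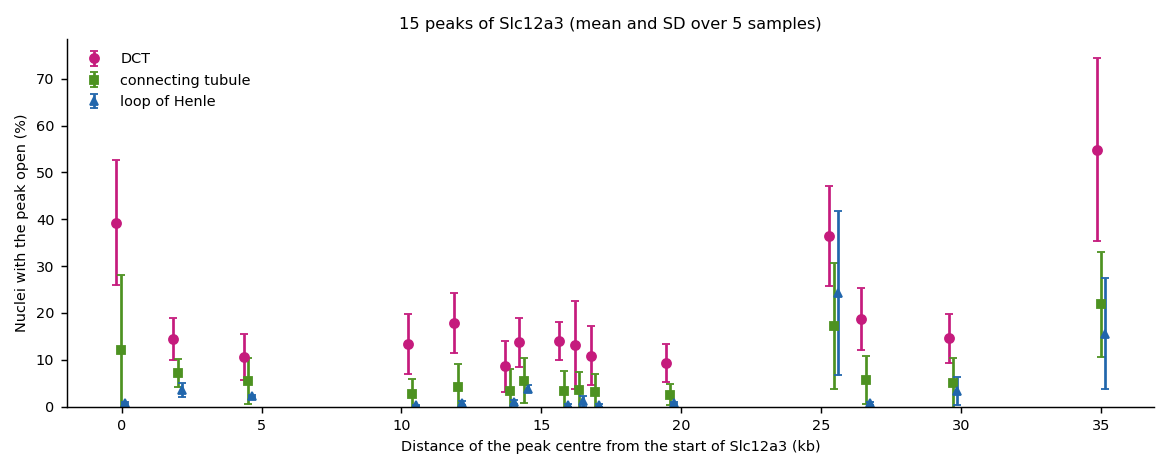
Mean percent of nuclei with each of the 15 Slc12a3 peaks open, with SD over 5 samples, against distance from the gene start in kb, for DCT, CNT and LOH nuclei. The DCT mean lies above both other means at every peak, with 39.3% against 12.1% in the CNT and 0.766% in the LOH at the start, and 54.9%, 21.8% and 15.6% at the 3′ end.

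The 5 lists of genes with known roles in the distal nephron, 66 genes in all, are described by counts. They were chosen with earlier results of these data known. Of all genes tested, 12.8% were higher and 12.2% lower than the mean. Against the LOH these shares were 1.97% and 2.51%, and against the CNT 0.359% and 1.1%. Against the mean of the remaining 12 clusters, 41 of 66 were higher and 4 lower, with a median log2 difference of 0.98 against -0.02 over all genes. Against the LOH 18 were higher and 7 lower, with a median of 0.21 beside -0.02, and against the CNT 5 were higher and 3 lower, with a median of 0.05 beside -0.01. Most of the 8 calls against the CNT turned on single samples. Of them, 6 were lost without P56 sample 1, 5 without P21 sample 1, 4 of the 7 that could be fitted without P56 sample 2, 1 without P0 sample 1 and 0 without P0 sample 2, and 6 were lost without the replicate block. Those of Nr3c1, Hsd11b2 and Slc8a1 ended without P21 sample 1 and without each P56 sample. That of Sall3 ended without P0 sample 1, P21 sample 1 or P56 sample 1. That of Pvalb ended without P21 sample 1 or P56 sample 1 and could not be fitted without P56 sample 2. Both were also lost without the block. The call for Slc12a3 held without any 1 sample but not without the block (1.55, adjusted p = 0.22). Of the 25 calls against the LOH, 1 to 4 were lost with 1 sample left out and 9 without the block.

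In the list of salt transport and its control, 14 of 18 genes were higher than the mean of the other types and 1, Sgk1, was lower, with a median of 0.98. The genes of the regulatory pathway included Klhl3, the adaptor that targets WNK kinases for degradation, with 412 and 392 CPM at P0, 806 in P21 sample 1, and 605 and 567 in P56 samples 1 and 2. It was higher than the mean by 1.84 (SE 0.13) and than the LOH by 1.39 (SE 0.20), and it was highest in DCT nuclei in 5 of 5 samples, but its 0.59 against the CNT did not pass (adjusted p = 0.14). The kinases Wnk1, with 0.66 (SE 0.08), Wnk4, with 1.00 (SE 0.13), and Stk39, also called SPAK, with 0.89 (SE 0.12), were higher than the mean. None of these kinases passed against the CNT (0.19, 0.21 and 0.24). Against the LOH Wnk1 was higher by 0.53, while Wnk4 (0.46) and Stk39 (0.13) did not pass. With start windows alone (peaks within 2 kb of a start) Wnk1 stood at -0.037 against the mean (adjusted p = 0.9). Oxsr1, the kinase related to Stk39, stood at -0.05 with an adjusted p of 0.75. All 17 of its peaks also count for other genes, so this value is not that of Oxsr1 alone.

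Kcnj10, a potassium channel subunit, was higher than the mean by 2.02 (SE 0.16) and than the LOH by 0.73 (SE 0.21), while its 0.14 against the CNT did not pass. Bsnd, which has a part in chloride transport, was higher than the mean by 2.35 (SE 0.28), yet intercalated cells averaged more of it, 148.1 against 142.4 CPM. Against the CNT, the salt list held Slc12a3 and Nr3c1, the glucocorticoid receptor (higher by 0.515, adjusted p = 0.029), and Hsd11b2, which inactivates glucocorticoids in aldosterone-sensitive cells, was lower by 0.95 (adjusted p = 0.031).

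In the magnesium list, 5 of 10 genes were higher than the mean of the other types and 1, Kcna1, was lower. The channel Trpm6 had 165 and 177 CPM at P0, 389 in P21 sample 1, and 269 and 290 in P56 samples 1 and 2, and was the highest in DCT nuclei in 5 of 5 samples. It was higher than the mean by 2.56 (SE 0.18) and than the LOH by 2.21 (SE 0.24), and by 0.80 (SE 0.25) than the CNT, where it did not pass (adjusted p = 0.083). Its close relative Trpm7, which most cells use, stood at 0.23 against the mean and did not pass. Pvalb had few calls, with 11.6 and 7.94 CPM at P0 and 25.9, 43.1 and 31.1 in the adult samples, but it was higher than the mean by 2.98, than the LOH by 2.89 and than the CNT by 2.06 (adjusted p = 0.012). Cnnm2, a transporter-like protein of the basolateral side, was higher than the mean by 0.88 (SE 0.09) and than the LOH by 0.77 (SE 0.12). Its 0.38 against the CNT did not pass.

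In the calcium list, 7 of 10 genes were higher than the mean of the other types, 5 were higher than the LOH, and 2 were lower than the CNT. Calb1, the calcium buffer of the late segment, was higher than the mean by 2.78 (SE 0.29) and than the LOH by 3.34 (SE 0.41). Its -0.63 against the CNT did not pass. The apical channel Trpv5 had 43.5 and 42.4 CPM in DCT nuclei at P0 and 11.5, 14.0 and 14.1 in the adult samples, and its log2 difference from the CNT was -2.02 (SE 0.40, adjusted p = 0.0018). The sodium-calcium exchanger Slc8a1 differed from the CNT by -1.15 (SE 0.29, adjusted p = 0.026). Both differences are averages over stages that were not lower in the P0 samples alone, at 0.042 for Trpv5 and 0.45 for Slc8a1. Vdr, the vitamin D receptor, was higher than the mean by 0.84 (SE 0.13) and than the LOH by 0.71 (SE 0.17), while its 0.11 against the CNT did not pass.

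Of 22 transcription factors, 13 were higher than the mean of the other types and 1, Irx3, was lower. Sall3, a zinc finger factor, had 165 and 132 CPM at P0, 230 in P21 sample 1, and 198 and 242 in P56 samples 1 and 2. It led all cell types in 5 of 5 samples and was higher than the mean by 2.825 (SE 0.14), than the LOH by 1.64 (SE 0.19) and than the CNT by 0.82 (SE 0.20, adjusted p = 0.016). The orphan nuclear receptor Esrrb, with 168 and 175 at P0, 245 in P21 sample 1 and 292 and 328 in P56 samples 1 and 2, was higher than the mean by 1.72 and than the CNT by 1.115 (SE 0.25), while against the LOH it stood at 0.10. Emx1, a homeobox gene, and Tfap2b, an AP-2 factor, were higher than the mean by 1.98 and 2.27, and Emx1 also than the LOH by 2.17. Neither passed against the CNT (0.41 and 0.32), and Tfap2b stood at 0.07 against the LOH. Against the LOH, 5 factors were higher, namely Sall3, Emx1, Tfap2a (1.19), Lhx1 (1.54) and Gata3 (2.18), and 3 were lower, namely the Iroquois genes Irx1 (-2.33), Irx2 (-2.84) and Irx3 (-1.82).

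Claudins, which seal or open the space between cells, differed at the border with the LOH. Of 8, 4 were lower in DCT than in LOH nuclei, namely Cldn10 (-1.42), Cldn14 (-0.96), Cldn16 (-1.94) and Cldn19 (-1.56), of which Cldn16 and Cldn19 form the cation pore of the thick ascending limb, and the other 4 did not pass. Cldn3, Cldn7 and Cldn8 were higher than the mean of the other types by 1.43, 1.41 and 2.575, while their differences from the CNT, -0.51, -0.19 and -0.37, did not pass.

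**Figure D3:**
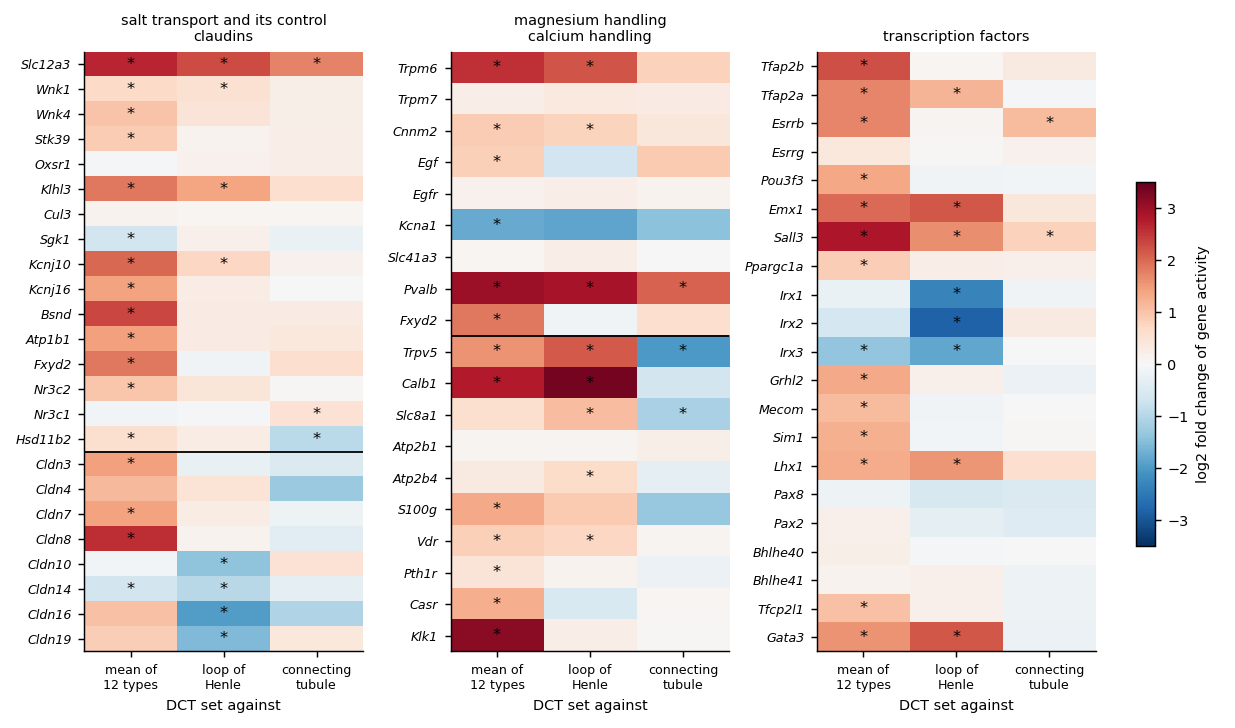
Heat map of the log2 difference in gene activity of DCT nuclei against the average of the 12 other clusters, the LOH and the CNT for genes of the 5 lists; an asterisk marks an adjusted p under 0.05. Most of the first column is positive, 4 of 8 claudins and the 3 Irx genes carry an asterisk and are negative against the LOH, and 8 of the 66 listed genes passed against the CNT.

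Among the 20 genes that most exceeded the mean of the other types with all 5 samples higher were Pvalb, Sall3, Calb1 and Klk1 from the lists, and many genes with few calls. Lrrc52, which encodes an auxiliary subunit of a potassium channel, was one, with 14.5 and 13.2 CPM at P0 and 158, 129 and 161 in the adult samples, a log2 difference of 3.18 (SE 0.29). The kallikrein genes Klk1b8, Klk1b22, Klk1b24 and Klk15 were also among them. Klk1, the renal kallikrein, stood at 3.16 against the mean but at 0.24 against the LOH and 0.03 against the CNT. The Klk1 family consists of near-identical copies, so calls may be split between them and these values are uncertain. Ankrd61 (3.36) and Cpt1b (2.81) share their peaks with neighbouring genes.

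At the level of single peaks, 14.3% of 77118 tested were higher in DCT nuclei than the mean of the other types and 8.57% were lower, that is 11003 and 6608. DESeq2 gave 11810 and 4468. Only 10 peaks, or 0.013%, exceeded every one of the 12 further clusters by edgeR with BH adjustment, of which 3 lie in Slc12a3.

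The 10 peaks were named by this criterion. The peak over the Esrrb start, at chr12:86360917-86361423, was open in 17.6% and 21.1% of DCT nuclei in P0 samples 1 and 2, in 23.8% in P21 sample 1, and in 11.7% and 43.8% in P56 samples 1 and 2, against a mean of 4.33% in the CNT. A peak in an intron of Cacna2d3, a calcium channel subunit gene, at chr14:28972525-28973355, was open in 15.7% and 15.8% at P0, in 20.8% in P21 sample 1, and in 17.9% and 27.2% in P56 samples 1 and 2. The peak in an intron of Sppl2a, at chr2:126897154-126898514, was open in 35.3% and 33.3% at P0, in 41.6% in P21 sample 1, and in 22.2% and 44.5% in P56 samples 1 and 2. Intercalated cells were next there, with a mean of 12.7%, whereas the CNT was next at the Esrrb and Cacna2d3 peaks. All 5 samples of DCT nuclei lay above the same samples of the next cell type at these 3 peaks.

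Of the other 7, the start peak of Slc12a3 is described above. The inner peaks of Slc12a3 are at chr8:94339435-94339721 (mean 13.4%) and chr8:94344887-94345111 (14.1%). The others are a peak in an exon of Zfp629 at chr7:127612901-127613593 (17.3%), one in an intron of Ptprn2 at chr12:116772097-116772715 (12.97%), one at chr9:103398473-103399148, 33.0 kb from the start of Cdv3 (14.6%), and one in an intron of Rell1 at chr5:63941285-63941772 (10.25%). The Ptprn2 peak was the most open in DCT nuclei in 4 of 5 samples, with 7.84% against 9.64% of proximal straight tubule nuclei in P0 sample 1, and the other 9 in 5 of 5. The call rests on few samples: without P0 sample 1 there were 6 such peaks, without P56 sample 2 also 6, and without P0 sample 2, P21 sample 1 or P56 sample 1 there were 0 by edgeR, with 286, 418 and 465 peaks at an unadjusted p under 0.05 against 490 with all samples. Without the replicate block there were 0, with 266 unadjusted.

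**Figure D4:**
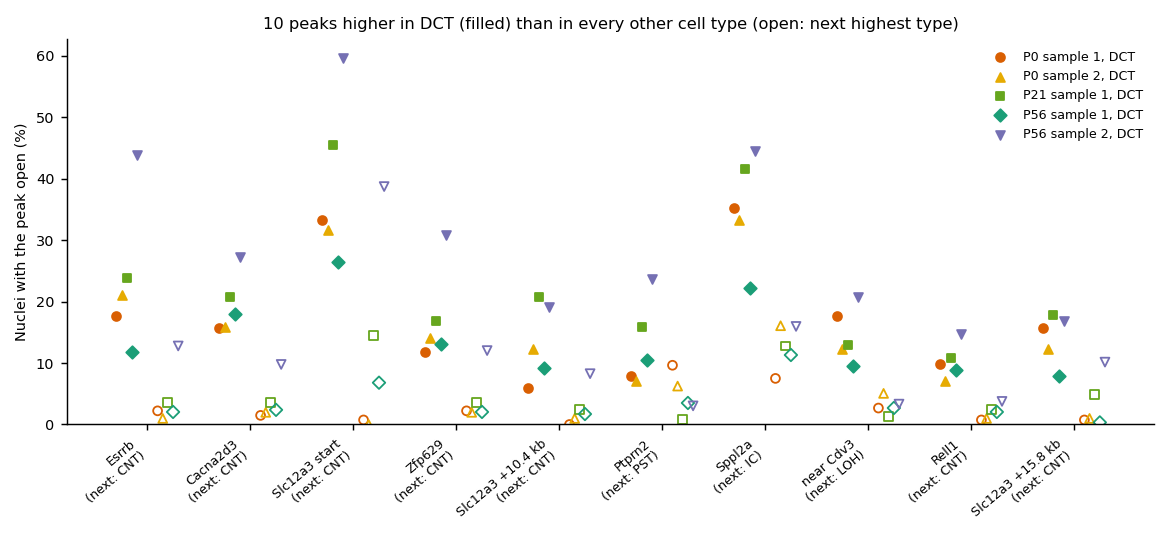
Percent of nuclei with each of the 10 peaks open, per sample, in DCT nuclei (filled) and in the next most open cell type (open symbols). DCT points lie above those of the next type in the same sample except for the Ptprn2 peak in P0 sample 1, and their mean runs from 10.25% at the Rell1 peak to 39.3% at the Slc12a3 start.

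A wider set was taken without a test, the peaks whose scaled level was highest in DCT nuclei in all 5 samples. These were 330 peaks, 0.786% of the 42001 tested peaks that were open in at least 2% of DCT nuclei. The lowest mean share among them was 4.64%, so that minimum did not bind. A median of 12.8% of DCT nuclei had such a peak open, against 6.10% in the next cell type, which was the CNT for 206 peaks and the LOH for 92. By the nearest gene start, 10 of the 17 tested peaks nearest to Slc12a3 were in the set, 4 of 8 for Trpm6, 4 of 12 for Lhx1 and 3 of 13 for Sall3, and 287 genes had at least 1, which is 1.94% of the 14785 genes nearest to any of the 42001 peaks. Of the 64 listed genes among these, 15 had such a peak (23.4%), and they had more peaks each, 8.75 on average against 2.84.

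Of these 330 leading peaks, introns held 49.1%, distal regions 30.9%, exons 16.7% and promoters up to 5 kb before a start 3.33%. The shares were close to those of all 300755 peaks of the series, 46.7%, 31.6%, 16.8% and 4.92%, but not to those of the 42001 peaks, 31.6%, 18.6%, 44.85% and 4.9%. A gene start lay in 5.76% of leading peaks, in 35.4% of the 42001 and in 7.435% of all peaks, and the median distance to a start was 18.7 kb, 4.75 kb and 20.6 kb. Their median width of 659 bp lay between the 825 bp of the 42001 and the 414 bp of all peaks.

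Of 16 motifs searched in the central 300 bp on both strands, 5 are described here against the 41985 tested peaks outside the mitochondrial genome and unplaced contigs, and were chosen after their values were seen. The steroid receptor motif was found in 2.12% of leading peaks (exact binomial 95% interval 0.857 to 4.32) against 0.746%, and the POU motif ATGCANAT in 7.27% (4.72 to 10.6) against 3.61%. The TEAD motif ACATTCC stood in 9.09% (6.22 to 12.7) against 5.35%. The TFAP2 motif stood in 12.1% (8.8 to 16.1) against 18.6%, and the ETS motif CCGGAAGT in 0 of 330, which allows up to 1.11%, against 2.11%. The median share of G and C was 49% in leading peaks against 53.3%. Away from starts, over 311 leading peaks, the steroid receptor motif was in 2.25% against 0.908%, POU in 7.4% against 4.64%, TEAD in 9.0% against 6.77% and TFAP2 in 12.2% against 12.8%, and ETS in 0, which allows up to 1.18%, against 0.572%. Over all peaks of the series the shares were 0.701% for the steroid receptor motif, 5.26% for POU, 6.06% for TEAD, 8.97% for TFAP2 and 0.601% for ETS. The TFAP2 share was thus below the first background and above the last. Away from starts no difference was detectable for ETS, for TEAD (exact binomial 95% interval 6.07 to 12.7) or for TFAP2 (8.79 to 16.4). There the intervals for POU (4.75 to 10.9) and the steroid receptor motif (0.91 to 4.58) began just above the share of the tested peaks. A match is a description of the letters and not of a bound factor.

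P0 and adult DCT nuclei were compared directly, over 2 against 3 samples. Stage was no part of the rule that names the cluster, but before clustering the authors reduced differences between samples with Harmony, and each sample is of 1 stage. What this did to the choice of DCT nuclei at each stage was not tested. Of 11919 genes, 1.59% (189) were higher in adult DCT nuclei and 5.03% (599) lower. Of 12247 peaks, 2.83% (346) were higher and 1.05% (129) lower, and DESeq2 called 42 and 43. The counts turned on single P0 samples. Without P0 sample 1, 58 genes and 136 peaks passed, and without P0 sample 2, 89 genes and 34 peaks. Without P56 sample 2 they were 325 and 261, without P56 sample 1 2012 and 935, and without P21 sample 1 there were 961 peaks. P0 sums were small and came from nuclei with more open peaks at the median. With 51 DCT nuclei from each sample 149 peaks passed, and with each nucleus thinned to 1000 open peaks 60 of 3009 genes passed and 0 of 657 peaks by edgeR, of which 47 had an unadjusted p under 0.05.

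Of the 59 listed genes tested for stage, 11 were higher in adult DCT nuclei and 2 lower, against 1.59% and 5.03% of all genes tested. Their median was 0.32 against 0.04 over all genes. Slc12a3, at 374 and 405 CPM at P0 and 708 to 912 in the adult samples, rose by 1.015 (SE 0.17, adjusted p = 0.0021), and the groups did not overlap. Its start peak rose by 0.97 (SE 0.23, adjusted p = 0.019), although the shares overlapped (31.6% and 33.3% at P0, 26.4% to 59.7% in adult samples). P56 sample 1, the lowest, also had the fewest open peaks per DCT nucleus. The call for the gene was lost only without P0 sample 1, with 0.97 and an adjusted p of 0.072. In the salt list Klhl3 (0.605), Kcnj10 (0.61) and Fxyd2 (0.75), a regulator of sodium transport, also rose.

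The magnesium list held 5 of the 11 genes that rose, of 9 tested. Trpm6 rose by 0.76 (SE 0.20, adjusted p = 0.027), Egf, the precursor of a growth factor that raises magnesium uptake, by 1.33 (SE 0.22), its receptor Egfr by 1.19 (SE 0.24), and Fxyd2 and Pvalb rose as well. Egf had 89.9 and 92.7 CPM at P0 and 288, 265 and 203 in P21 sample 1 and P56 samples 1 and 2, without overlap. Pvalb rose by 1.70 (SE 0.50) at an adjusted p of 0.05, just under the threshold. The transcription factors Esrrb (0.69) and Ppargc1a (0.73), a coactivator of mitochondrial genes, and the kallikrein Klk1 (1.32) rose too. Trpv5 fell by 1.74 on the log2 scale, a change of -1.74 (SE 0.41, adjusted p = 0.015), and Cldn19 by -1.61 (SE 0.31).

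These 13 calls differed in how firmly they held. Leaving out P0 sample 1 ended 12 of them and leaving out P0 sample 2 ended 11. DESeq2 ended 7, leaving out P56 sample 2 6 of the 12 that could be fitted, equal numbers of DCT nuclei in each sample 5, DESeq2 size factors in edgeR 3 and leaving out P21 sample 1 2. With each nucleus thinned to 1000 open peaks, 7 of 9 were lost, and Pvalb, Trpv5, Klk1 and Cldn19 had too few calls to be fitted. Pvalb could also not be fitted without P56 sample 1 or P56 sample 2. The direction was the same wherever a value was obtained.

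**Figure D5:**
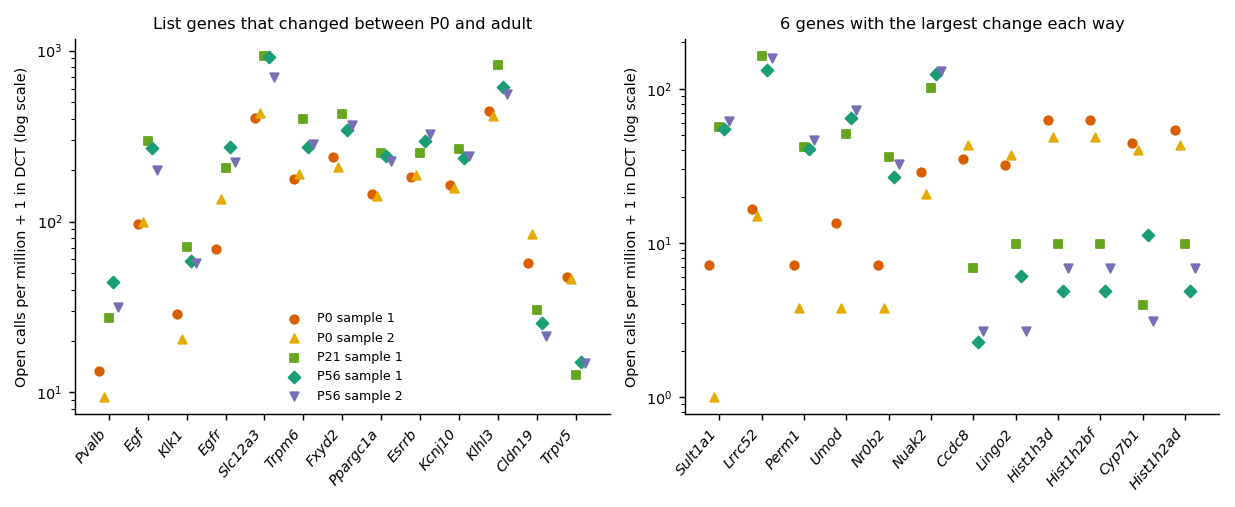
CPM plus 1, on a log axis, in DCT nuclei of each of the 5 samples for the listed genes that passed the stage test and for the genes with the largest change in each direction. The adult points of Slc12a3 (696 to 923 in the fit of DCT nuclei alone) lie above both P0 points (401 and 429).

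Beyond the lists, the largest adult increases were in genes with few calls at P0. Sult1a1, a sulfotransferase gene, had 2 and 0 open calls in P0 samples 1 and 2 and 19, 42 and 145 in P21 sample 1 and P56 samples 1 and 2, a ratio per depth of 20.8 with a 95% counting interval of 5.68 to 173. Perm1, a regulator of mitochondrial genes in muscle, had 2, 1, 14, 31 and 109, a ratio of 10.4 (3.48 to 50.8), and Nr0b2, the nuclear receptor SHP, had 2, 1, 12, 20 and 75, a ratio of 7.196 (2.397 to 35.4). Lrrc52 rose by 3.33 (SE 0.31, adjusted p = 3.0e-05) from 5 and 5 calls to 55, 102 and 377. Nuak2, a kinase gene, rose by 2.35 (SE 0.29) from 9 and 7 calls to 34, 97 and 307. Umod, the LOH gene of uromodulin, rose by 3.12 (SE 0.46) from 4 and 1 calls to 17, 50 and 171. All adult samples exceeded both P0 samples per depth for each of these 6 genes. The call for Nr0b2 was lost by DESeq2 (adjusted p = 0.1) and without P0 sample 1 (0.12) or P0 sample 2 (0.23), that for Perm1 without P0 sample 2 (0.085) and with equal numbers of nuclei (0.081), and that for Umod without P0 sample 2 (0.065). With thinned nuclei Lrrc52 alone of the 6 could be fitted.

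The largest decreases were Ccdc8, which fell from 11 and 15 calls in the P0 samples to 2, 1 and 4 in P21 sample 1 and P56 samples 1 and 2, a log2 change of -4.13 (SE 0.75), Lingo2 (-3.27), Cyp7b1 (-3.23), an oxysterol hydroxylase gene, and the histone genes Hist1h3d and Hist1h2bf (-3.23 each) and Hist1h2ad (-3.02). The histone genes share peaks, so they are not separate observations. Without P0 sample 1 the calls for all 6 were lost, with adjusted p from 0.058 to 0.14, and without P0 sample 2 those for Ccdc8, Lingo2 and Cyp7b1 were lost (0.088, 0.19 and 0.1).

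Markers of other cell types moved with stage in the DCT sums. The 4 LOH markers together were at 92.8 and 79.4 CPM at P0 and 131 to 147 in the adult samples. Of them Umod went from 11.6 and 2.65 to 49.0, 63.4 and 72.9, while the LOH transporter Slc12a1 stayed at 38.4 to 47.7 against 83.4 to 425 in LOH nuclei. The nephron progenitor list averaged 68.0 at P0 and 26.7 in the adult samples, the stroma list 69.1 and 37.6, the endothelial list 149 and 88.9, and the principal cell list 70.9 and 28.5, the podocyte list 58.0 and 29.7, the immune list 42.7 and 19.2, and the intercalated cell list 42.0 and 34.4. The proximal tubule list was at 151 and 164. Apart from the CNT markers, the lists that averaged less in adult than in P0 DCT nuclei did so in CNT and LOH nuclei too. The CNT markers averaged 395 at P0 and 347 in the adult samples in DCT nuclei. They rose from 276 to 1047 in CNT and from 126 to 176 in LOH nuclei. The nephron progenitor list went from 78.7 to 27.3 in CNT and from 136 to 37.8 in LOH nuclei. The endothelial list went from 161 to 83.0 and from 171 to 118, and the podocyte list from 66.7 to 37.0 and from 69.1 to 29.7. Single members of these lists, Atp6v1g3 (intercalated cells), Kap (proximal tubule) and C1qb (immune cells), had 0 calls in 4686311, which allows 0.64 CPM. Other members of the same lists did have calls, with means of 22.5 CPM for Slc26a4, 77.5 for Lrp2 and 17.6 for Ptprc. The part of these lists in the stage results was not tested.

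Differences between DCT and CNT nuclei changed with stage in the fit of all 5 samples. The stage effects set against the CNT here, and against the LOH below, were fitted with all 5 samples only, after seeing the data. Whether these differences of stage effects hold with 1 sample left out or with thinned nuclei was not tested. The stage effect in DCT nuclei minus that in CNT nuclei passed as higher for 0.162% of 17235 genes and as lower for 0.267%, and for 0 and 6 of the 66 listed genes. Slc12a3 exceeded the CNT by 2.89 at P0 and by 1.29 in the adult samples, and the stage effect differed between the clusters by -1.63 (SE 0.30, adjusted p = 0.0021). In the calcium list 4 of 10 genes, Trpv5, Slc8a1, Calb1 and Pth1r, had a lower stage effect in DCT nuclei as well, and 0 a higher one. Trpv5 stood at 0.042 against the CNT at P0 and at -3.205 in the adult samples, with a difference of stage effects of -3.215 (SE 0.57, adjusted p = 0.0015). Slc8a1 stood at 0.45 and -1.72, with a difference of -2.13 (SE 0.25, adjusted p = 1.2e-07), and Calb1 at 0.78 and -1.05, with -1.77 (SE 0.45, adjusted p = 0.049). Slc8a1 activity was 296 and 220 CPM in DCT nuclei at P0 against 190 and 183 in CNT nuclei, and 147 to 209 against 446 to 766 in the adult samples. The summed CNT markers were at 435 and 355 in DCT against 271 and 281 in CNT nuclei at P0. In the adult samples they were at 327 to 359 against 827 to 1224. Slc8a1 was the largest member of each sum, so the sums are not separate from it. At neither stage did the clusters overlap in these sums, which were higher in the DCT at P0 and in the CNT in the adult samples. Trpv5 by itself was alike at P0, with 43.5 and 42.4 CPM in DCT and 43.2 and 39.5 in CNT nuclei.

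Set against the LOH in the same way, 1.49% of genes had a higher stage effect in DCT nuclei and 1.97% a lower one, against 8 and 11 of the 66 listed genes. In the magnesium list 2 of 10 were higher, Trpm6 and Pvalb, and 3 lower, with Fxyd2 and Egf among them, and in the salt list 0 of 18 were higher and 7 lower. Trpm6 was higher than in the LOH by 1.17 at P0 and by 2.84 in the adult samples, a difference of 1.62 (SE 0.26, adjusted p = 3.4e-05), and Pvalb by 0.50 and 4.17, a difference of 3.61 (SE 0.72, adjusted p = 0.0012). Of the 22 transcription factors 5 had a higher stage effect in DCT nuclei and 1 a lower one, and the median over the list was -0.26 against -0.03 over all genes. Sall3 (0.99 and 2.04) was among the 5, with Lhx1, Gata3, Emx1 and Tfap2a. None of the 5 passed for stage within DCT nuclei (0.50, 0.36, 0.22, 0.50 and 0.53). Their activity in LOH nuclei was lower in each adult sample than in both P0 samples. For Lhx1 it went from 37.3 and 38.1 CPM to 15.0, 8.83 and 11.3. The difference from the LOH also grew for Lhx1 (0.51 and 2.70), Gata3 (1.104 and 3.17), Emx1 (1.21 and 2.97) and Tfap2a (0.33 and 1.63). Their stage effects differed by 2.15, 2.03, 1.695 and 1.26 at adjusted p of 9e-06, 1.8e-05, 0.00077 and 3.7e-05. Slc12a3 was the reverse, 2.875 at P0 and 1.93 in the adult samples, with -1.02 (SE 0.23, adjusted p = 0.0052), and so was Egf, with -0.08 and -0.96 and a difference of -0.97 (SE 0.29, adjusted p = 0.045). Fxyd2 stood at 0.99 and -0.62, with a difference of -1.67 (adjusted p = 1.8e-05).

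The stage effect in DCT nuclei was also tested against the mean stage effect of the other 12 cell types, which passed for 154 of 17235 genes (0.894%). Of the 66 listed genes 5 were higher, Klhl3, Kcnj10, Egf, Pvalb and Tfap2a, and 1, Atp1b1, was lower. For Slc12a3 the difference was -0.39 (SE 0.19, adjusted p = 0.47), so an adult increase particular to DCT nuclei was not shown for it. Without P0 sample 1 the test called 0 genes by edgeR, with 1040 at an unadjusted p under 0.05, and without P0 sample 2 it called 21.

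The leading peaks were examined for stage too. Of the 330, 218 had enough calls, 31 were higher in adult DCT nuclei and the others did not pass. Of all 12247 peaks 2.83% were higher and 1.05% lower. The median was 0.57 against 0.03 over all 12247 peaks. Calls in the same samples chose the set, so these counts are given as a description. Per nucleus their median share was 15.7% and 12.3% at P0 and 10.9%, 9.12% and 18.2% in the adult samples, without a separation of the stages before scaling for depth.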

How the data were processed

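Nuclei were profiled in 5 snATAC-seq samples. The authors aligned reads with Cell Ranger ATAC to mm10, filtered and clustered nuclei with SnapATAC after Harmony correction for samples, and called peaks with MACS2 per cell type on pooled nuclei. The deposited matrix holds binary values, which the authors set to mark a peak as open in a nucleus. Its 89197 entries listed as 0, whose meaning is not given in the sources used here, were read as closed. Cell types come from the deposited annotation, and doublets were not called here.

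Open calls were summed as counts per sample and cell type (at least 20 nuclei each), so the deposited binary values became counts. Genes took all peaks over the body and 2 kb upstream (GENCODE). Sums were fitted with edgeR 4.0.16 (R 4.3.3; quasi-likelihood, TMM, minimum count 10 and total 15, BH threshold 0.05), with the sample as a replicate block between cell types, since all types of a sample share a library. P0 and adult DCT were fitted on DCT sums alone. DESeq2 1.42.0 was an alternative. SE is the log2 difference divided by the root of F. Scripts were checked on simulated data.

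Named genes are the listed genes, the 20 genes and 12 peaks with the largest difference from the mean that were higher in all samples, peaks above every other type, marker start peaks, the 6 genes with the largest stage change in each direction and the 6 with the smallest interaction p. Values of 3 listed genes are not reported here, though counts and medians over their lists include them. The members and lists were chosen with earlier results of these data known. Intervals and limits for counts of 0 cover counting error only, with 3 counts as the limit. The series' single cell RNA files gave 1 count of clusters, and its other assays were not used here.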

Additional observations from a re-analysis of the deposited data

Results flagged for a closer look

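For 12 of the named genes the change from P0 to adult in DCT nuclei differed from the mean change of the other 12 cell types by the interaction test of edgeR with BH adjustment, and each value is the log2 change in DCT minus that mean. Among the listed genes it was 0.68 for Klhl3, 0.87 for Kcnj10, 1.0 for Egf, 3.0 for Pvalb, 1.08 for Tfap2a and -0.81 for Atp1b1, of which the last was the least certain (adjusted p = 0.049). The 6 genes with the smallest p, all with an adjusted p of 7.5e-05, were Rfx4 (1.39), Tbc1d4 (1.09), Fgf13 (2.86), Soga1 (-1.68), Ptprm (-1.1) and Dact2 (-1.69). In DCT nuclei Soga1 went from 154 and 117 CPM at P0 to 34.6, 38.0 and 35.4 in the adult samples, and Rfx4 from 81.2 and 76.8 to 150, 161 and 139, without overlap in either gene. Groups of 2 and 3 samples are too small to look for a sample that lies far from the rest.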

How the results depend on the processing

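DCT nuclei were few at P0 (51 and 57) and depth differed between samples, and the part of either in the counts below was not tested. The value for 1 sample left out is given as a range over the 5 samples.
Peaks against the mean (17611) were 2544 with nuclei thinned to 1000 open peaks, 6609 in P0 alone and 10897 to 16387 with 1 sample left out (10897 without P56 sample 2). Genes against the mean (4170) were 1783, 1787 and 2653 to 3660 (2653 without P56 sample 2). Genes against the LOH (749) were 427 with start windows only, 344 thinned, 1677 in adult samples alone, 1039 in P0 alone and 334 to 633 (438, 440 and 334 without P21 sample 1, P56 sample 1 and P56 sample 2). Genes against the CNT (244) were 121, 70, 729, 355 and 78 to 200 (109, 78 and 84 without the same samples).
Without the replicate block these counts were 14335, 2910, 258 and 66, and peaks above every other type were 0. The latter (10) were 20 with no filter, 24 in adult samples alone, 0 thinned, 963 by Fisher's exact test over nuclei, which treats nuclei of 1 sample as independent, and 0 to 6 with 1 sample left out. Leading peaks (330) were 26 thinned, 764 in adult samples alone and 397 to 459 with 1 sample left out.
Stage peaks (475) were 85 by DESeq2, 1102 unfiltered, 149 with equal nuclei, 0 thinned and 34 to 961. Stage genes (788) were 363, 1382, 60 thinned and 58 to 2012. Interaction genes (154) were 7 thinned, 74 against the CNT, 596 against the LOH and 0 to 211 (91 without P56 sample 2). The difference in DCT share stayed at 2.80 to 4.75 points. No paired analysis was possible within DCT because P0 and adult samples come from different animals.
In whole peaks the motif shares, each followed by that of the tested peaks, were ESRR 9.39% and 5.68%, TFAP2 23.9% and 37.8%, steroid receptor 4.85% and 1.97%, POU 13% and 10.3%, AP-1 19.1% and 19.9%, GRHL 8.48% and 7.66%, GATA 10.0% and 7.94%, FOX 9.7% and 10.8%, TEAD 15.2% and 13.4%, and KLF 17.9% and 24%.
Of 1647 values of named genes under alternatives 1431 kept direction and call, 210 lost the call and 6 turned. These were Trpv5 (-0.064 against the mean, thinned; 0.042 against the CNT, P0 alone), Slc8a1 (0.45 against the CNT, P0 alone), Wnk1 (-0.037 against the mean and -0.008 against the LOH, start windows) and Atp1b1 (0.21, interaction, thinned). Comparisons with adult or P0 samples alone against LOH and CNT, other references for the interaction, thinning for peaks above every type, counting entries listed as 0 as open and leaving out the wide Slc12a3 peak were chosen after seeing the data. Among all calls against the mean, the sign changed for 209 genes with start windows, 95 genes and 432 peaks in P0 alone, and 19 genes and 21 peaks thinned. Against the LOH it changed for 27 genes with start windows and 39 in P0 alone, and against the CNT for 8 and 6. The cause of these shifts was not tested.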

Other observations

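The wide peak over the 3′ end of Slc12a3 held 410 of the 4619 entries listed as 0 in DCT nuclei, 15, 10, 49, 31 and 305 in P0 samples 1 and 2, P21 sample 1 and P56 samples 1 and 2. Counted as open, they put the peak at 86.3%, 73.7%, 98.0%, 93.5% and 98.85% of DCT nuclei, against a mean of 45.0% in proximal straight tubule, 31.6% in CNT and 16.0% in LOH nuclei, and DCT was then highest in all 5 samples. As deposited, the share was 54.8 points higher in P56 sample 1 than in P56 sample 2. This was the widest excess of sample 1 over sample 2 among all peaks in DCT nuclei, with 48.0 points at the next. In the other direction, a peak in the mitochondrial genome had 3.58% in P56 sample 1 and 65% in P56 sample 2. Slc12a3 activity against the mean was 2.67 as deposited and 2.80 with these entries open.

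The deposited clusters of the single cell RNA-seq name 4976 of 25138 P0 cells (19.8%) and 4099 of 18498 adult cells (22.2%) as DCT and hold no CNT cluster. Among nuclei, DCT and CNT together were 3.104%, 2.91%, 5.475%, 8.43% and 10.9% of all nuclei in the same sample order as above. The assays differ in cell isolation and in cluster names, so no direction is read between them.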
